A study of Mus musculus with 8 samples.

Results

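The NF-kB and inflammatory genes described here are 34 mouse genes chosen by symbol: Tnf and other cytokines, the NF-kB subunits, the IkB proteins, components and targets of the TNF pathway, chemokines, Toll-like receptors and genes that restrain cytokine signalling. They were found on the arrays as the non-control probes that carry these gene names, 39 probes among 55681. Of the 34 genes, 33 were among the 23231 features tested and 30 were well above background on all 8 arrays. The gene not tested was Il1a, which encodes interleukin 1 alpha: its only probe was not well above background on any array. Expression was measured on one-colour Agilent arrays of RNA from sorted bone marrow cells of mice aged 6 weeks on a mixed strain background (B6/CBA and others). There were 4 groups of 2 arrays: Gr Vav-Etv2, Gr control, KSL Vav-Etv2 and KSL control. Gr cells are the Gr-1+/Mac-1+ fraction, made up of granulocytes and maturing myeloid cells, and KSL cells are the lineage negative fraction with c-Kit and Sca-1, which holds blood stem and progenitor cells. Vav-Etv2 mice carry a transgene of Etv2, an ETS family transcription factor of embryonic blood and vessel precursors, named for the Vav promoter, which is active across blood cells. The labels do not say how the transgene was built, what the control mice carried, or whether an array holds RNA of 1 mouse or of several, so the p-values speak for these arrays only, whose spread may be technical.

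NF-kB is a family of dimeric transcription factors that IkB proteins hold inactive in the cytoplasm. Signals from Toll-like receptors, the interleukin 1 receptor and TNF receptors reach the IKK kinase complex, which marks IkB for destruction and frees the dimers to switch on cytokines, chemokines and, as a brake, their own inhibitors. Granulocytes carry many of these receptors ready for use, and in stem and progenitor cells the same pathway is known to link infection to blood production.

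NF-kB dimers bind a DNA element called the kappaB site, and the sequences below show it in promoters of 4 members, chosen for the perfect or nearly perfect matches they hold. Promoter sequences came from RefSeq on build GRCm38.p6, from 250 bases before to 50 bases after the start, for 27 of the 34 genes. Ccl2, Ccl4, Il10ra, Nfkb1, Nfkbiz, Relb and Tlr4 had no entry. The loose kappaB consensus, searched on both strands with overlapping matches allowed, was found for 13 of these 27 genes and for 9.55% of the 27025 genes in the table. The exact sequence of the Nfkbia match, GGGAATTTCC, also a case of the consensus, was present in the promoters of Nfkbia, Cxcl1 and Cxcl2 and in 0.107% of genes. An ETS element spelled CCGGAAGT, searched on both strands, was in the promoter of 0 of the 27 members and 4.31% of genes. A match is a description of the sequence and not a measured site. In the stretches from base -200 to base -1 before the start, written 5′ to 3′ along the gene, capitals mark matches to the consensus that lie wholly inside the stretch.
Cxcl1, chr5:90891045-90891244, plus strand: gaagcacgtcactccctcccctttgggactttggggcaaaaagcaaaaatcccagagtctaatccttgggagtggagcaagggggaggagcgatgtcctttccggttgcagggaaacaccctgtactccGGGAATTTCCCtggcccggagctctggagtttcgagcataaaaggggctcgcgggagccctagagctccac
Cxcl2, chr5:90903699-90903898, plus strand: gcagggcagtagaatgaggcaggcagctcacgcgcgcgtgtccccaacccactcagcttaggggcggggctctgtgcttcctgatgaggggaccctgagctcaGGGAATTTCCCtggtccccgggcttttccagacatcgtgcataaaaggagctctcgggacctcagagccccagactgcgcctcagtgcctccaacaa
Nfkbia, chr12:55492648-55492847, minus strand: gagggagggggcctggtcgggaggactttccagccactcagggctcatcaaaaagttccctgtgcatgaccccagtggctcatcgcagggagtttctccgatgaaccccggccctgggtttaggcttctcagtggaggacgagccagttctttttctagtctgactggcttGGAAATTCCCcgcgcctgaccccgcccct
Tlr2, chr3:83841609-83841808, minus strand: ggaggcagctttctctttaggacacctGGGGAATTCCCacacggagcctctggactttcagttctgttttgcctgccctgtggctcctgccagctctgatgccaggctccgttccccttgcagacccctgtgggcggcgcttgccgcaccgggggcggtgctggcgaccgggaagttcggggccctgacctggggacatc
Cxcl1 and Cxcl2 are neighbouring related genes, and their matches lie between bases -71 and -61 and between bases -97 and -87. The match of Nfkbia lies between bases -29 and -20 and reads GGGAATTTCC on the strand opposite to the gene. Another match of Tlr2, between bases -8 and 2, runs past the stretch shown.

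A level is the log2 processed signal minus the 75th percentile of its array, and a difference is on the same log2 scale. The 75th percentile of the signal lay between 136 and 300 and the share of probes well above background between 47.7% and 55.5%. Etv2 stood at -0.55 and -1.29 in Gr Vav-Etv2 replicates 1 and 2 and at -4.48 and -0.54 in the arrays labelled Gr control 1 and 2. KSL Vav-Etv2 cells had 0.19 and -1.24, and KSL control cells -4.37 and -4.73. The array labelled Gr control 2 was thus as high in Etv2 as the Gr Vav-Etv2 arrays, against its label, and each Gr minus KSL difference in control cells is also given with that array left out, in brackets as the value without Gr control 2. All 8 arrays lay on 1 slide, with Gr arrays in row 2 and KSL arrays in row 1, so cell type and slide row cannot be told apart. The Gr arrays also split by replicate number: Xist stood at 0.35 and -6.82 in Gr Vav-Etv2 replicates 1 and 2 and at 0.27 and -7.10 in the arrays labelled Gr control. Xist lay between 2.12 and 2.69 on the 4 KSL arrays.

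Cell type markers went with the labels in part. The 11 measured mature neutrophil genes summed to 10363 and 5309 in Gr Vav-Etv2 cells, 12242 and 5320 in the arrays labelled Gr control, 103 and 1628 in KSL Vav-Etv2 cells and 1595 and 1519 in KSL control cells, in units of the 75th percentile on a linear scale. KSL cells are sorted to lack these lineages, yet all 4 KSL arrays held neutrophil transcripts, with the lowest sum in KSL Vav-Etv2 replicate 1. The 10 stem and progenitor genes summed to between 32.3 and 88.8 in Gr cells, to 261 and 280 in KSL Vav-Etv2 cells and to 340 and 366 in KSL control cells. Kit, which encodes the c-Kit receptor of the KSL gate, stood at 1.95 and 1.42 in Gr Vav-Etv2 cells and 2.04 and 1.84 in the arrays labelled Gr control. The KSL levels were 3.45 and 4.32 with Vav-Etv2 and 5.15 and 5.15 in controls. Ly6a, which encodes Sca-1, went the other way, with 6.33 and 4.50 in Gr Vav-Etv2 cells and 6.18 and 4.48 in the arrays labelled Gr control. On KSL arrays it read 2.26 and 3.09 with Vav-Etv2 and 3.65 and 3.59 in controls. In bulk RNA of this kind, fewer cells of a type and less RNA per cell cannot be told apart.

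The first question was how the inflammatory genes differ between granulocytic and stem cell fractions. Most stood higher in Gr than in KSL cells, in both genotypes. Among 33 genes, 22 were higher and 1, Ccl4, was lower in Gr Vav-Etv2 than in KSL Vav-Etv2 cells at a Benjamini-Hochberg adjusted p under 0.05 (limma, all 8 arrays, n = 2 a group), where 13.8% of all features were higher and 10.4% lower. In control cells 20 of 33 were higher and 0 lower in Gr, against 18.5% and 16.2% of all features. The median difference over the 33 genes was 2.27 in Vav-Etv2 cells and 1.95 in control cells, against 0.10 and 0.13 over all features. Il1rn and Cxcl1 are among the genes called and passed the filter of 2 arrays above background only through Gr arrays, where they were high. Of the 30 genes well above background on all 8 arrays, 20 were higher and 1 lower in Vav-Etv2 cells, and 19 were higher and 0 lower in control cells. The genes called higher in both genotypes numbered 19, against 11.7% of features, and 0 were lower in both, against 8.93%. The comparisons of the genotypes contrast different arrays, but their calls use 1 estimate of spread from all 8 arrays. The calls in the genotypes are thus not independent of each other. On all 4 Gr arrays 24 genes stood above all 4 KSL arrays, as did 28.7% of features, and Ccl4 stood below them, as did 25.5%. The 24 include Il1rn and Cxcl1, not well above background on any KSL array. Cxcl1 was well above it on 2 Gr arrays only, so its order is not a measured one. Without the array labelled Gr control 2, 19 genes were higher in Gr control cells, 18 of them from the 20, with Rel gained and Tnfaip3 and Tnfrsf1b lost, and the median difference was 1.95. Calls rested on few arrays, and leaving out 1 array lowered their number in most cases, among the 33 genes as among all features. The median difference over the 33 genes then ranged from 1.76 to 2.38 in Vav-Etv2 cells and from 1.71 to 2.06 in control cells.

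**Figure D1:**
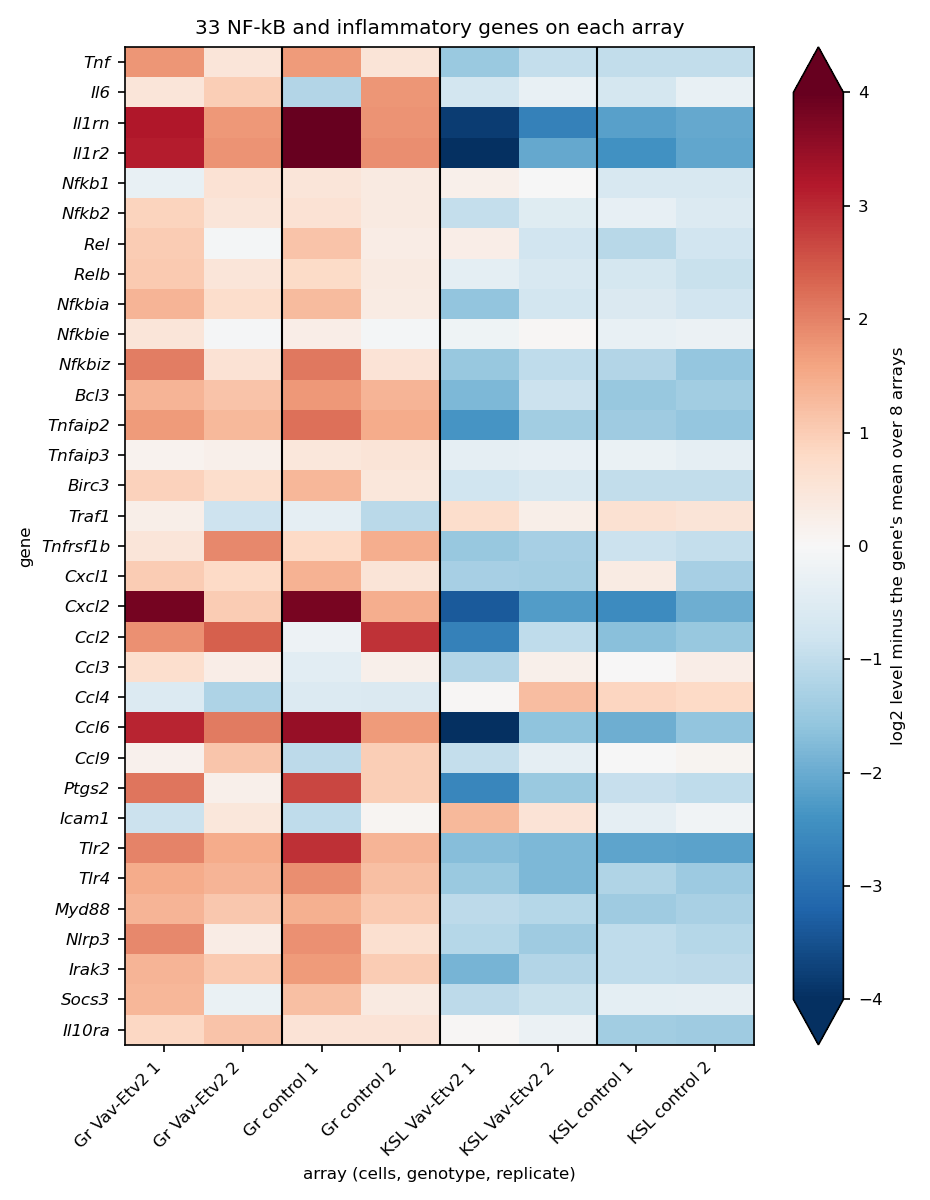
Levels of the 33 tested genes on each array, shown as log2 level minus the gene's mean over the 8 arrays (red above, blue below, colours saturating at 4), with Gr Vav-Etv2, Gr control, KSL Vav-Etv2 and KSL control from left to right. For 24 genes all 4 Gr arrays stand above all 4 KSL arrays, and Ccl4 shows the opposite. The 24 include Il1rn and Cxcl1, which were not well above background on any KSL array.

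Among the cytokines and their antagonists, the interleukin 1 antagonists differed most. Il1r2 encodes a decoy receptor that binds interleukin 1 without signalling, and its levels were 5.20 and 3.87 in Gr Vav-Etv2 cells and 6.13 and 3.92 in the arrays labelled Gr control. KSL cells read -2.26 and 0.03 with Vav-Etv2 and -0.35 and -0.01 in controls. All Gr arrays lay above all KSL arrays, and the Gr minus KSL difference was 5.65 (SE 0.97, adjusted p = 0.00932) in Vav-Etv2 cells and 5.21 (SE 0.97, adjusted p = 0.00980) in control cells (6.31 without Gr control 2). Il1rn, the secreted receptor antagonist, stood at 0.66 and -0.82 in Gr Vav-Etv2 cells and 1.45 and -0.74 in the arrays labelled Gr control. Its levels in KSL cells were -6.33 and -5.25 with Vav-Etv2 and -4.71 and -4.60 in controls. It was well above background on every Gr array and on no KSL array, so its level was at least 20.2-fold higher in Gr than KSL cells of Vav-Etv2 mice. In those of control mice it was at least 22.8-fold higher (at least 48.7-fold without Gr control 2). Tnf, a main activating ligand of the pathway, had levels of 3.42 and 2.12 in Gr Vav-Etv2 cells and 3.35 and 2.15 in the arrays labelled Gr control. In KSL cells the levels were 0.17 and 0.69 with Vav-Etv2 and 0.65 and 0.65 in controls. Its difference was 2.34 (SE 0.56, adjusted p = 0.0269) in Vav-Etv2 cells and 2.10 (SE 0.56, adjusted p = 0.0294) in control cells (2.70 without Gr control 2), and the lowest Gr array, at 2.12, still exceeded the highest KSL array, at 0.69. Il6, a cytokine induced by NF-kB, stood at -1.92 and -1.42 in Gr Vav-Etv2 cells and -3.56 and -0.63 in the arrays labelled Gr control. Levels in KSL cells were -3.14 and -2.71 with Vav-Etv2 and -3.10 and -2.70 in controls. It was low on all arrays, its groups overlapped in control cells, and its difference of 1.25 (SE 0.86, adjusted p = 0.307) in Vav-Etv2 cells and 0.80 (SE 0.86, adjusted p = 0.488) in control cells (-0.66 without Gr control 2) did not pass the test.

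The 4 NF-kB subunits among the members differed less. Relb, a subunit of the noncanonical pathway, stood at 1.63 and 1.04 in Gr Vav-Etv2 cells and 1.33 and 0.92 in the arrays labelled Gr control. KSL Vav-Etv2 cells had 0.18 and -0.08, and KSL control cells -0.13 and -0.32. The difference was 1.29 (SE 0.33, adjusted p = 0.0333) in Vav-Etv2 cells and 1.36 (SE 0.33, adjusted p = 0.0225) in control cells (1.56 without Gr control 2). Nfkb2 encodes the p100 precursor that partners RelB, and its levels were 2.01 and 1.62 in Gr Vav-Etv2 cells and 1.69 and 1.49 in the arrays labelled Gr control. The KSL levels were 0.16 and 0.63 with Vav-Etv2 and 0.81 and 0.58 in controls. Gr arrays lay above KSL arrays in both genotypes, with a difference of 1.42 (SE 0.31, adjusted p = 0.0209) in Vav-Etv2 cells and 0.90 (SE 0.31, adjusted p = 0.0640) in control cells (1.00 without Gr control 2), which passed in Vav-Etv2 cells. Nfkb1, the precursor of the p50 subunit, stood at 1.30 and 2.16 in Gr Vav-Etv2 cells and 2.08 and 1.94 in the arrays labelled Gr control. On KSL arrays it read 1.79 and 1.59 with Vav-Etv2 and 0.94 and 0.96 in controls. The difference was 0.04 (SE 0.35, adjusted p = 0.936) in Vav-Etv2 cells and 1.06 (SE 0.35, adjusted p = 0.0546) in control cells (1.13 without Gr control 2). Neither value passed. Rel, which encodes c-Rel, was close to background, at -3.16 and -4.27 in Gr Vav-Etv2 cells and -3.05 and -3.88 in the arrays labelled Gr control. KSL cells read -3.94 and -4.96 with Vav-Etv2 and -5.31 and -4.95 in controls. It was well above background on all Gr arrays and on 1 KSL array, Vav-Etv2 replicate 1, and its difference of 0.74 (SE 0.54, adjusted p = 0.338) in Vav-Etv2 cells and 1.66 (SE 0.54, adjusted p = 0.0526) in control cells (2.08 without Gr control 2) passed in neither genotype with all arrays, and passed in control cells without Gr control 2 (adjusted p = 0.0471). A fold for Rel in control cells is a lower bound, at least 1.61-fold higher in Gr (at least 2.16-fold without Gr control 2). The remaining subunit gene, Rela, is not a member. It read 6.12 and 5.87 in Gr Vav-Etv2 cells and 6.29 and 5.85 in the arrays labelled Gr control. KSL cells had 5.26 and 5.40 with Vav-Etv2 and 5.15 and 5.31 in controls.

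Of the 4 IkB family genes 3 were higher in Gr cells of both genotypes. Nfkbia encodes IkB alpha, the main cytoplasmic inhibitor and a rapid target of NF-kB, and stood at 7.27 and 6.60 in Gr Vav-Etv2 cells and 7.17 and 6.22 in the arrays labelled Gr control. Its levels in KSL cells were 4.32 and 5.16 with Vav-Etv2 and 5.31 and 5.14 in controls. Its difference was 2.19 (SE 0.47, adjusted p = 0.0181) in Vav-Etv2 cells and 1.47 (SE 0.47, adjusted p = 0.0491) in control cells (1.94 without Gr control 2); the control call was lost in 11 of 18 alternatives and the Vav-Etv2 call in 2. Bcl3, a nuclear IkB protein that works with p50 and p52, had levels of 4.80 and 4.59 in Gr Vav-Etv2 cells and 5.20 and 4.80 in the arrays labelled Gr control. In KSL cells the levels were 1.64 and 2.59 with Vav-Etv2 and 1.95 and 2.05 in controls. Its difference was 2.59 (SE 0.38, adjusted p = 0.00611) in Vav-Etv2 cells and 3.00 (SE 0.38, adjusted p = 0.00316) in control cells (3.20 without Gr control 2) and passed in all 18 alternatives in each genotype. Nfkbiz, another nuclear member that is induced through Toll-like receptors, stood at 3.55 and 2.10 in Gr Vav-Etv2 cells and 3.63 and 2.05 in the arrays labelled Gr control. Levels in KSL cells were -0.01 and 0.49 with Vav-Etv2 and 0.34 and -0.03 in controls. The difference was 2.59 (SE 0.66, adjusted p = 0.0321) in Vav-Etv2 cells and 2.68 (SE 0.66, adjusted p = 0.0226) in control cells (3.47 without Gr control 2). Within each genotype the replicate 1 Gr array was higher by 1.46 and 1.58. Nfkbie, the fourth member and a cytoplasmic inhibitor, stood at 2.41 and 1.88 in Gr Vav-Etv2 cells and 2.19 and 1.83 in the arrays labelled Gr control. KSL Vav-Etv2 cells had 1.76 and 1.97, and KSL control cells 1.62 and 1.69. Its difference of 0.29 (SE 0.31, adjusted p = 0.517) in Vav-Etv2 cells and 0.35 (SE 0.31, adjusted p = 0.403) in control cells (0.54 without Gr control 2) did not pass.

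Among components and targets of the TNF pathway, Tnfaip2, Birc3 and Tnfrsf1b were higher in Gr cells of both genotypes. Tnfaip2, named for its induction by TNF, stood at 4.86 and 4.45 in Gr Vav-Etv2 cells and 5.36 and 4.62 in the arrays labelled Gr control. The KSL levels were 0.77 and 1.76 with Vav-Etv2 and 1.73 and 1.59 in controls. The difference was 3.40 (SE 0.44, adjusted p = 0.00430) in Vav-Etv2 cells and 3.33 (SE 0.44, adjusted p = 0.00341) in control cells (3.71 without Gr control 2). Birc3 encodes cIAP2, a ubiquitin ligase at TNF receptors, and its levels were 1.83 and 1.61 in Gr Vav-Etv2 cells and 2.24 and 1.35 in the arrays labelled Gr control. On KSL arrays it read 0.12 and 0.25 with Vav-Etv2 and -0.07 and -0.08 in controls. The difference was 1.53 (SE 0.36, adjusted p = 0.0244) in Vav-Etv2 cells and 1.87 (SE 0.36, adjusted p = 0.0104) in control cells (2.32 without Gr control 2). Tnfrsf1b, the second TNF receptor, stood at 1.04 and 2.48 in Gr Vav-Etv2 cells and 1.37 and 2.01 in the arrays labelled Gr control. KSL cells read -0.97 and -0.76 with Vav-Etv2 and -0.30 and -0.38 in controls. The difference was 2.63 (SE 0.50, adjusted p = 0.0128) in Vav-Etv2 cells and 2.02 (SE 0.50, adjusted p = 0.0231) in control cells (1.70 without Gr control 2). The control difference without Gr control 2 was not past the threshold. Tnfaip3, the A20 enzyme that shuts the pathway down, had levels of 2.21 and 2.28 in Gr Vav-Etv2 cells and 2.51 and 2.59 in the arrays labelled Gr control. Its levels in KSL cells were 1.71 and 1.72 with Vav-Etv2 and 1.79 and 1.69 in controls. Gr arrays lay above KSL arrays by a small margin, 0.53 (SE 0.26, adjusted p = 0.167) in Vav-Etv2 cells and 0.81 (SE 0.26, adjusted p = 0.0482) in control cells (0.77 without Gr control 2), and the control call was lost in 14 of 18 alternatives, that without Gr control 2 among them. Traf1, an adaptor of TNF receptors, leaned the other way, at -0.15 and -1.22 in Gr Vav-Etv2 cells and -0.75 and -1.47 in the arrays labelled Gr control. In KSL cells the levels were 0.30 and -0.15 with Vav-Etv2 and 0.21 and 0.12 in controls. Its difference of -0.76 (SE 0.45, adjusted p = 0.244) in Vav-Etv2 cells and -1.28 (SE 0.45, adjusted p = 0.0661) in control cells (-0.92 without Gr control 2) did not pass.

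Chemokines went in both directions. The neutrophil attractant Cxcl2 stood at 5.12 and 2.33 in Gr Vav-Etv2 cells and 5.10 and 2.75 in the arrays labelled Gr control. Levels in KSL cells were -2.07 and -0.93 with Vav-Etv2 and -1.22 and -0.66 in controls. Every Gr array lay above every KSL array, and the difference was 5.22 (SE 1.08, adjusted p = 0.0167) in Vav-Etv2 cells and 4.86 (SE 1.08, adjusted p = 0.0167) in control cells (6.04 without Gr control 2). Its neighbour Cxcl1 stood at -4.21 and -4.42 in Gr Vav-Etv2 cells and -3.85 and -4.73 in the arrays labelled Gr control. KSL Vav-Etv2 cells had -6.57 and -6.60, and KSL control cells -4.89 and -6.57. It was well above background on 2 arrays only, the replicate 2 arrays of both Gr groups. The bound for Cxcl1 in Vav-Etv2 cells was at least 1.08-fold higher in Gr, and no bound could be given in control cells. Its call in Vav-Etv2 cells was lost in 7 of 17 alternatives, among them no filter, a floor for dim signals and normexp background correction. Ccl2, which draws monocytes, stood at 2.93 and 3.48 in Gr Vav-Etv2 cells and 0.90 and 3.98 in the arrays labelled Gr control. The KSL levels were -1.59 and 0.08 with Vav-Etv2 and -0.56 and -0.42 in controls. Its difference was 3.96 (SE 1.00, adjusted p = 0.0310) in Vav-Etv2 cells and 2.93 (SE 1.00, adjusted p = 0.0595) in control cells (1.39 without Gr control 2), and the lowest Gr array, the array labelled Gr control 1, was 3.08 below its replicate.

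The probes of 4 CC chemokines lie in a cluster on chromosome 11 (build mm9): Ccl9 at chr11:83388223-83388282, Ccl6 at chr11:83401997-83402056, Ccl3 at chr11:83461358-83461417 and Ccl4 at chr11:83478052-83478111. Within this cluster the genes did not share a pattern. Ccl6, an abundant myeloid chemokine of mice, stood at 8.38 and 7.41 in Gr Vav-Etv2 cells and 8.84 and 7.03 in the arrays labelled Gr control. On KSL arrays it read 0.19 and 3.72 with Vav-Etv2 and 3.40 and 3.76 in controls. The difference was 5.94 (SE 1.14, adjusted p = 0.0132) in Vav-Etv2 cells and 4.35 (SE 1.14, adjusted p = 0.0279) in control cells (5.26 without Gr control 2). Ccl4, which encodes MIP-1 beta, had levels of 3.07 and 2.38 in Gr Vav-Etv2 cells and 3.08 and 3.06 in the arrays labelled Gr control. KSL cells read 3.69 and 4.85 with Vav-Etv2 and 4.49 and 4.41 in controls. It was lower on every Gr array, by -1.55 (SE 0.45, adjusted p = 0.0472) in Vav-Etv2 cells and -1.38 (SE 0.45, adjusted p = 0.0519) in control cells (-1.37 without Gr control 2), and the Vav-Etv2 call was lost in 12 of 18 alternatives. Ccl3, which encodes MIP-1 alpha, stood at 5.04 and 4.64 in Gr Vav-Etv2 cells and 3.95 and 4.58 in the arrays labelled Gr control. Its levels in KSL cells were 3.22 and 4.58 with Vav-Etv2 and 4.40 and 4.66 in controls. Its difference of 0.94 (SE 0.50, adjusted p = 0.197) in Vav-Etv2 cells and -0.27 (SE 0.50, adjusted p = 0.694) in control cells (-0.58 without Gr control 2) did not pass in either genotype. Ccl9 stood at 4.64 and 5.59 in Gr Vav-Etv2 cells and 3.44 and 5.46 in the arrays labelled Gr control. In KSL cells the levels were 3.53 and 4.13 with Vav-Etv2 and 4.45 and 4.57 in controls. The difference was 1.29 (SE 0.68, adjusted p = 0.196) in Vav-Etv2 cells and -0.06 (SE 0.68, adjusted p = 0.954) in control cells (-1.07 without Gr control 2), also not past the threshold.

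The inducible effectors split. Ptgs2, the prostaglandin synthase COX-2, stood at 3.56 and 1.63 in Gr Vav-Etv2 cells and 4.07 and 2.40 in the arrays labelled Gr control. Levels in KSL cells were -1.19 and -0.08 with Vav-Etv2 and 0.50 and 0.41 in controls. The difference was 3.23 (SE 0.80, adjusted p = 0.0295) in Vav-Etv2 cells and 2.78 (SE 0.80, adjusted p = 0.0367) in control cells (3.62 without Gr control 2). Icam1, an adhesion molecule for leukocyte integrins, had levels of -2.04 and -0.72 in Gr Vav-Etv2 cells and -2.21 and -1.11 in the arrays labelled Gr control. KSL Vav-Etv2 cells had 0.12 and -0.64, and KSL control cells -1.54 and -1.34. Its difference of -1.12 (SE 0.57, adjusted p = 0.183) in Vav-Etv2 cells and -0.22 (SE 0.57, adjusted p = 0.783) in control cells (-0.77 without Gr control 2) did not pass.

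All 5 genes for Toll-like receptors, a sensor and their signalling were higher in Gr cells of both genotypes. Of these, 4 genes, Tlr2, Tlr4, Myd88 and Irak3, kept both calls under all 18 alternatives. Tlr2, a receptor for bacterial lipoproteins, stood at 5.06 and 4.54 in Gr Vav-Etv2 cells and 5.97 and 4.42 in the arrays labelled Gr control. The KSL levels were 1.35 and 1.27 with Vav-Etv2 and 0.96 and 0.93 in controls. The difference was 3.49 (SE 0.51, adjusted p = 0.00597) in Vav-Etv2 cells and 4.25 (SE 0.51, adjusted p = 0.00269) in control cells (5.03 without Gr control 2). Tlr4, the receptor for lipopolysaccharide, was dimmer, at 0.87 and 0.73 in Gr Vav-Etv2 cells and 1.24 and 0.57 in the arrays labelled Gr control. On KSL arrays it read -2.11 and -2.42 with Vav-Etv2 and -1.82 and -2.07 in controls. The difference was 3.06 (SE 0.33, adjusted p = 0.00274) in Vav-Etv2 cells and 2.85 (SE 0.33, adjusted p = 0.00246) in control cells (3.19 without Gr control 2). Myd88, the adaptor shared by most Toll-like receptors, had levels of 5.13 and 4.84 in Gr Vav-Etv2 cells and 5.18 and 4.83 in the arrays labelled Gr control. KSL cells read 2.71 and 2.64 with Vav-Etv2 and 2.35 and 2.47 in controls. Its replicates lay within 0.35 of each other in every group, and its difference was 2.31 (SE 0.28, adjusted p = 0.00376) in Vav-Etv2 cells and 2.60 (SE 0.28, adjusted p = 0.00207) in control cells (2.77 without Gr control 2). Irak3, an inactive relative of the IRAK kinases that restrains this signalling, stood at 3.61 and 3.31 in Gr Vav-Etv2 cells and 3.94 and 3.26 in the arrays labelled Gr control. Its levels in KSL cells were 0.38 and 1.08 with Vav-Etv2 and 1.24 and 1.19 in controls. The difference was 2.73 (SE 0.38, adjusted p = 0.00499) in Vav-Etv2 cells and 2.38 (SE 0.38, adjusted p = 0.00573) in control cells (2.72 without Gr control 2). Nlrp3, an inflammasome sensor, was low in all cells, at -0.40 and -2.04 in Gr Vav-Etv2 cells and -0.51 and -1.69 in the arrays labelled Gr control. In KSL cells the levels were -3.46 and -3.74 with Vav-Etv2 and -3.35 and -3.46 in controls. Its difference of 2.38 (SE 0.61, adjusted p = 0.0330) in Vav-Etv2 cells and 2.30 (SE 0.61, adjusted p = 0.0286) in control cells (2.90 without Gr control 2) was lost in 8 of 18 alternatives in Vav-Etv2 cells and 4 in control cells.

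Both genes that restrain cytokine signals stood higher on Gr arrays, and 1 passed. Il10ra, the ligand-binding chain of the interleukin 10 receptor, stood at 3.73 and 4.05 in Gr Vav-Etv2 cells and 3.45 and 3.45 in the arrays labelled Gr control. Levels in KSL cells were 2.96 and 2.68 with Vav-Etv2 and 1.52 and 1.48 in controls. The difference was 1.07 (SE 0.28, adjusted p = 0.0346) in Vav-Etv2 cells and 1.95 (SE 0.28, adjusted p = 0.00438) in control cells (1.95 without Gr control 2). Socs3, which damps signalling by interleukin 6 and G-CSF receptors, had levels of 5.07 and 3.47 in Gr Vav-Etv2 cells and 4.94 and 4.11 in the arrays labelled Gr control. KSL Vav-Etv2 cells had 2.70 and 2.86, and KSL control cells 3.35 and 3.39. The difference was 1.49 (SE 0.55, adjusted p = 0.0914) in Vav-Etv2 cells and 1.15 (SE 0.55, adjusted p = 0.143) in control cells (1.57 without Gr control 2), and neither passed.

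How far a call held varied by gene. In Vav-Etv2 cells the call of Il10ra was lost in 9 of 18 alternatives, those of Relb and Birc3 in 7, those of Nfkb2, Nfkbiz and Ptgs2 in 6, and those of Tnf and Ccl2 in 5. Cxcl2 lost it in 2, and Il1r2, Tnfrsf1b and Ccl6 in 1. In control cells the calls of Tnf, Relb, Tnfrsf1b and Ptgs2 were lost in 4 of 18 alternatives, those of Nfkbiz, Cxcl2 and Ccl6 in 3, and those of Il1r2 and Birc3 in 2. Tnfaip2 kept its call in all 18 in each genotype, and Il10ra in control cells.

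**Figure D2:**
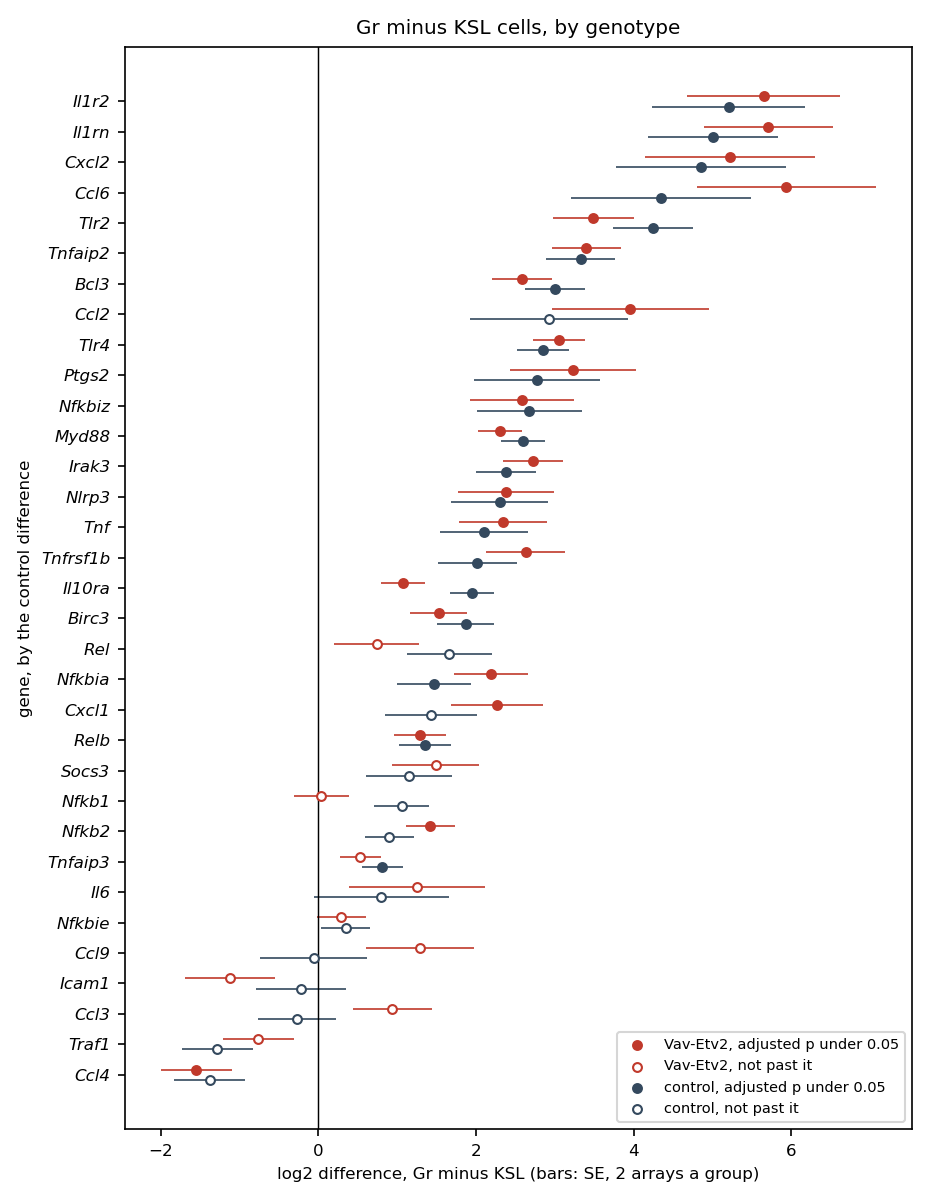
Gr minus KSL log2 difference of each gene in Vav-Etv2 cells (red) and control cells (dark), with SE bars and 2 arrays a group, ordered by the control difference. Filled points passed an adjusted p of 0.05; 19 genes passed as higher in both genotypes and Ccl4 as lower in Vav-Etv2 cells.

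Read against these calls, the kappaB consensus was found for 6 of the 15 genes with a promoter sequence that were higher in Gr cells of both genotypes, and for 7 of the 12 other genes with one. Of the 3 promoters with the exact sequence, those of Nfkbia and Cxcl2 belong to genes called in both genotypes and that of Cxcl1 to a gene well above background on 2 arrays.

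The rest of the pathway was described with 75 further genes in 4 lists, of which 74 were tested. In Vav-Etv2 cells, where 13.8% of all features were higher in Gr than in KSL cells and 10.4% lower, 29 of 74 were higher and 4 lower. The median difference was 0.93. In control cells, where 18.5% of all features were higher and 16.2% lower, 32 were higher and 5 lower, with a median of 0.98. Without Gr control 2 these control values were 31, 6 and 1.28. Other Toll-like receptors, adaptors and inflammasome genes were higher for 13 of 20 in each genotype, against 13.8% of all features in Vav-Etv2 and 18.5% in control cells. Tlr5, in this list, was well above background on the 4 Gr arrays alone and passed the filter through them. Another list held 18 genes of the IKK complex, upstream kinases and adaptors and other NF-kB and IkB proteins, Rela among them. Of these, 2 were higher in Vav-Etv2 cells, no more than the share of all features, and 6 in control cells. Among 22 other cytokines and receptors, 10 were higher and 3 lower in each genotype. The share called lower was near that of all features. Il12b, Lta and Il10, in that list, were well above background on KSL arrays alone and passed the filter through them. Among 14 other feedback inhibitors 4 were higher and 1 lower in Vav-Etv2 cells. In control cells 3 were higher and 2 lower, both near the shares of all features.

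Partners of the members showed which side of the interleukin 1 system was high in each cell type. Il1b, the secreted ligand, stood at 6.39 and 4.31 in Gr Vav-Etv2 cells and 7.34 and 5.31 in the arrays labelled Gr control. The KSL levels were -2.48 and 0.62 with Vav-Etv2 and 0.69 and 1.07 in controls. The difference was 6.28 (SE 1.19, adjusted p = 0.0125) in Vav-Etv2 cells and 5.45 (SE 1.19, adjusted p = 0.0157) in control cells (6.46 without Gr control 2). Il1r1, the signalling receptor, was the reverse, at -3.78 and -3.27 in Gr Vav-Etv2 cells and -4.27 and -4.23 in the arrays labelled Gr control. On KSL arrays it read 0.55 and 1.28 with Vav-Etv2 and 1.61 and 1.74 in controls. It was well above background on every KSL array and on 2 Gr arrays, both replicate 2, and its difference was -4.45 (SE 0.35, adjusted p = 0.00133) in Vav-Etv2 cells and -5.93 (SE 0.35, adjusted p = 7.10e-04) in control cells (at least 44.4-fold lower without Gr control 2). The co-receptor Il1rap stood at -1.24 and -1.34 in Gr Vav-Etv2 cells and -0.36 and -0.92 in the arrays labelled Gr control. KSL cells read -2.30 and -2.26 with Vav-Etv2 and -3.38 and -3.02 in controls. The difference was 0.99 (SE 0.31, adjusted p = 0.0603) in Vav-Etv2 cells and 2.56 (SE 0.31, adjusted p = 0.00276) in control cells (2.84 without Gr control 2). Gr cells were thus high in the ligand Il1b and in both antagonists Il1rn and Il1r2, and KSL cells in the receptor Il1r1. Sigirr, which restrains interleukin 1 and Toll-like receptors, was also lower in Gr cells, by -2.07 (SE 0.39, adjusted p = 0.0122) in Vav-Etv2 cells and -3.24 (SE 0.39, adjusted p = 0.00265) in control cells (-3.67 without Gr control 2).

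The lipopolysaccharide co-receptors Cd14 and Ly96 were higher in Gr cells along with Tlr4, by 4.75 (SE 0.87, adjusted p = 0.0113) in Vav-Etv2 cells and 4.23 (SE 0.87, adjusted p = 0.0133) in control cells (5.27 without Gr control 2) for Cd14. For Ly96 the differences were 2.24 (SE 0.35, adjusted p = 0.00724) in Vav-Etv2 cells and 1.95 (SE 0.35, adjusted p = 0.00899) in control cells (2.28 without Gr control 2). Cxcr2, the receptor of Cxcl1 and Cxcl2, also belongs to the neutrophil marker list, and was higher by 5.65 (SE 0.97, adjusted p = 0.00911) in Vav-Etv2 cells and 4.94 (SE 0.97, adjusted p = 0.0112) in control cells (5.66 without Gr control 2). Ccr1, a receptor for several CC chemokines, was at least 20.8-fold higher in control Gr cells (adjusted p = 0.00238; at least 31.2-fold without Gr control 2), and in Vav-Etv2 cells the difference was 4.84 (SE 0.66, adjusted p = 0.00498). Ccr2, the receptor of Ccl2, differed by 0.79 (SE 1.10, adjusted p = 0.615) in Vav-Etv2 cells and 3.21 (SE 1.10, adjusted p = 0.0610) in control cells (1.52 without Gr control 2) and did not pass. Tnfrsf1a, the first TNF receptor, was higher by 2.50 (SE 0.43, adjusted p = 0.00943) in Vav-Etv2 cells and 2.50 (SE 0.43, adjusted p = 0.00768) in control cells (2.96 without Gr control 2), and Il6ra, the interleukin 6 receptor, by 2.16 (SE 0.31, adjusted p = 0.00567) in Vav-Etv2 cells and 2.15 (SE 0.31, adjusted p = 0.00461) in control cells (2.19 without Gr control 2). Il10, the ligand of Il10ra, was well above background on the 2 KSL control arrays alone and passed the filter through them. Its level was at least 2.59-fold lower in control Gr cells (at least 1.39-fold without Gr control 2).

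Other genes with the smallest p were Csf2rb, Tlr8, Nod2, Tlr13 and N4bp1. Csf2rb, the shared receptor chain for GM-CSF and related cytokines, differed by 3.24 (SE 0.37, adjusted p = 0.00315) in Vav-Etv2 cells and 3.36 (SE 0.37, adjusted p = 0.00215) in control cells (3.43 without Gr control 2). Tlr13, which senses bacterial ribosomal RNA, differed by 5.28 (SE 0.66, adjusted p = 0.00389) in Vav-Etv2 cells and 4.71 (SE 0.66, adjusted p = 0.00403) in control cells (5.22 without Gr control 2), and Nod2, a sensor of bacterial cell wall, by 3.55 (SE 0.42, adjusted p = 0.00351) in Vav-Etv2 cells and 2.83 (SE 0.42, adjusted p = 0.00503) in control cells (3.15 without Gr control 2). Tlr8 was not well above background in KSL Vav-Etv2 cells and was at least 6.40-fold higher in Gr Vav-Etv2 cells (adjusted p = 0.00135). In control cells its difference was 2.13 (SE 0.37, adjusted p = 0.00764), and 2.61 without Gr control 2. N4bp1 differed by 1.67 (SE 0.36, adjusted p = 0.0182) in Vav-Etv2 cells and 3.06 (SE 0.36, adjusted p = 0.00243) in control cells (3.47 without Gr control 2).

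The inflammatory genes also varied between Gr replicates. Both replicate 1 Gr arrays stood above both replicate 2 Gr arrays for 23 of 33 genes, as they did for 41.6% of all features, and below them for 5, Il6, Tnfrsf1b, Ccl2, Ccl9 and Icam1, as for 32.1% of features. The 23 include Cxcl1, which was not well above background on the replicate 1 arrays. Cxcl2 was 2.80 higher in replicate 1 than in replicate 2 in Gr Vav-Etv2 cells and 2.36 higher in the arrays labelled Gr control. Ptgs2 was higher by 1.93 and 1.68, and Tnf by 1.31 and 1.19. Ccl2 ran the other way, lower in replicate 1 by 0.55 in Vav-Etv2 cells and 3.08 in controls, as did Ccl9, by 0.95 and 2.02. On KSL arrays the same split held for 2 genes with replicate 1 higher, against 15.7% of features, and 8 with it lower, against 13.8%. The replicate 1 and replicate 2 Gr arrays are those that Xist separates.

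Several marker lists moved with this split. The 13 measured genes of handling stress and the immediate early response, such as Fos and Egr1, summed to 886 and 336 in Gr Vav-Etv2 replicates 1 and 2 and to 960 and 382 in the arrays labelled Gr control 1 and 2. Mature neutrophil genes were higher on the replicate 1 arrays, as given above. The 10 mast cell, basophil and eosinophil genes were higher on replicate 2, with sums of 9.03 and 68.1 in Gr Vav-Etv2 cells and 8.04 and 128 in the arrays labelled Gr control. The 13 measured monocyte and macrophage genes summed to 291 and 390 and to 200 and 313, but did not move together. Their median level was 2.95 and 2.75 in Gr Vav-Etv2 replicates 1 and 2 and 1.59 and 2.92 in the arrays labelled Gr control. C1qa, C1qb, C1qc, Siglec1, Vcam1 and Fcgr4 were higher on both replicate 1 arrays. The part of handling, of sex or of these cells in the replicate differences was not tested.

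**Figure D3:**
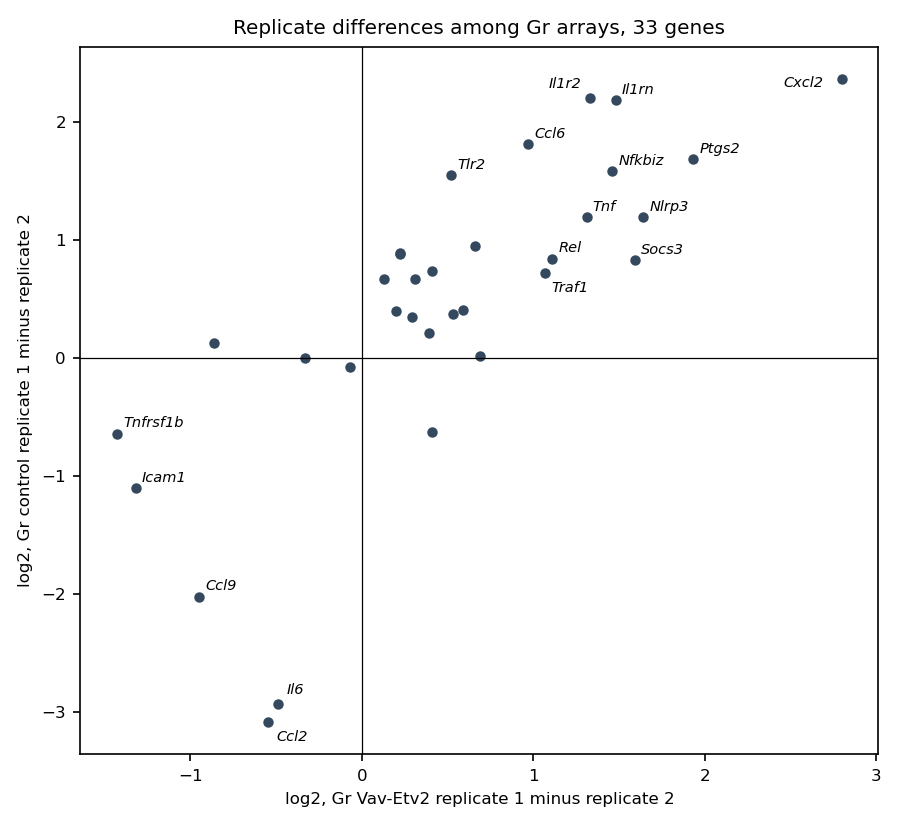
Replicate 1 minus replicate 2, log2, for each of the 33 genes in Gr Vav-Etv2 cells (x axis) and in the arrays labelled Gr control (y axis), with genes past 1 on either axis named. The 23 genes with both replicate 1 arrays above both replicate 2 arrays lie at upper right, and so does Bcl3. Ccl2, Il6, Ccl9, Icam1 and Tnfrsf1b, with both below, lie at lower left, and so does Tnfaip3, close to the origin.

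The second question was whether the Etv2 transgene altered these genes. In KSL cells 0 of 33 genes passed an adjusted p of 0.05 (limma), against 0.0172% of all features, and 1 gene, Il10ra, had an unadjusted p under 0.05. The median difference, Vav-Etv2 minus control, was -0.22 over the 33 genes and 0.00 over all features, with 11 genes above 0 and 22 below. Il1rn and Cxcl1, both below 0, were not well above background on any KSL array and so have no measured difference there; over the other 31 genes the median was -0.19, with 20 below 0. The KSL groups did not overlap for 8 genes with Vav-Etv2 higher, against 26.2% of features, and for 8 with Vav-Etv2 lower, 6 of them measured, against 25.4%, so the members' shares were near the background.

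Il10ra had the smallest adjusted p, with levels of 2.96 and 2.68 in KSL Vav-Etv2 cells and 1.52 and 1.48 in KSL control cells and a difference of 1.32 (SE 0.28, adjusted p = 0.259). Both Vav-Etv2 arrays lay above both controls by over 1 on the log2 scale, a larger gap than that between replicates. Leaving out 1 array gave differences of 1.18 to 1.46. Icam1 also stood higher, at 0.12 and -0.64 in KSL Vav-Etv2 cells and -1.54 and -1.34 in KSL control cells, a difference of 1.18 (SE 0.57, adjusted p = 0.786). Nfkb1 stood at 1.79 and 1.59 in KSL Vav-Etv2 cells and 0.94 and 0.96 in KSL control cells, a difference of 0.74 (SE 0.35, adjusted p = 0.768). Of the measured genes, Ptgs2 stood at -1.19 and -0.08 in KSL Vav-Etv2 cells and 0.50 and 0.41 in KSL control cells, a difference of -1.09 (SE 0.80, adjusted p = 0.964).

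KSL Vav-Etv2 replicate 1 was the lowest of the 4 KSL arrays for 18 of 33 genes (17 of the 31 measured), as it was for 33.8% of features. Ccl6 shows the split most plainly, with 0.19 and 3.72 in KSL Vav-Etv2 cells and 3.40 and 3.76 in KSL control cells. Its difference of -1.63 (SE 1.14, adjusted p = 0.951) came to 0.14 without KSL Vav-Etv2 replicate 1. The 6 chemokines measured in KSL cells had negative differences, of -1.63 to -0.18, and were lowest on that array. The median over the 33 genes was 0.10 without KSL Vav-Etv2 replicate 1 and -0.48 without replicate 2. That array also held the low neutrophil sum of 103, where the other Vav-Etv2 array had 1628 and the controls 1595 and 1519. The 11 neutrophil genes all had negative differences, with a median of -1.93.

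Other lists separated both KSL Vav-Etv2 arrays from the controls. The 8 endothelial genes had a median level of 2.83 and -1.17 in KSL Vav-Etv2 cells and -2.50 and -2.31 in KSL control cells, and 7 of them, all but Kdr, had positive differences. Their sums, 58.4 and 12.5 in KSL Vav-Etv2 cells and 15.1 and 10.6 in controls, did not separate the groups. The 10 stem and progenitor genes, whose sums are given above, all had negative differences, with a median of -0.87 and 3 at an unadjusted p under 0.05. The 6 measured erythroid genes summed to 18.5 and 26.1 in KSL Vav-Etv2 cells and 43.6 and 40.8 in controls. The 9 B lineage genes summed to 114 and 149 in KSL Vav-Etv2 cells and 39.0 and 39.8 in KSL control cells. Monocyte and macrophage genes summed to 60.5 and 77.1 in KSL Vav-Etv2 cells and 38.2 and 44.1 in controls. Their median levels, -1.89 and -0.10 with Vav-Etv2 and -1.22 and -0.94 in controls, did not separate the groups. Handling stress genes summed to 204 and 353 in KSL Vav-Etv2 cells and 516 and 492 in controls. The part of these cells or of handling in the KSL differences, that of Il10ra included, was not tested. Among the other pathway genes 0 of 74 passed. Tlr8 came closest: it was well above background on both KSL controls and on no KSL Vav-Etv2 array, at least 1.84-fold lower (adjusted p = 0.0987). Ccr2, a monocyte marker as well, stood at 3.66 and 3.14 in KSL Vav-Etv2 cells and -0.07 and 0.20 in KSL control cells, a difference of 3.33 (SE 1.10, adjusted p = 0.546).

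In Gr cells 0 of 33 genes passed (limma), against 0.00861% of features, and 0 had an unadjusted p under 0.05, with a median difference of -0.03 over the 33 genes and -0.01 over all features. The Gr groups did not overlap for 4 genes: Ccl3 and Il10ra stood higher with Vav-Etv2, against 5.83% of features, and Bcl3 and Tnfaip3 lower, against 5.79%. Ccl3 stood at 5.04 and 4.64 in Gr Vav-Etv2 cells and 3.95 and 4.58 in the arrays labelled Gr control, a difference of 0.58 (SE 0.50, adjusted p = 1.00). For Il10ra the levels were 3.73 and 4.05 in Gr Vav-Etv2 cells and 3.45 and 3.45 in the arrays labelled Gr control, a difference of 0.43 (SE 0.28, adjusted p = 1.00). Bcl3 had 4.80 and 4.59 in Gr Vav-Etv2 cells and 5.20 and 4.80 in the arrays labelled Gr control, a difference of -0.30 (SE 0.38, adjusted p = 1.00), and Tnfaip3 had 2.21 and 2.28 in Gr Vav-Etv2 cells and 2.51 and 2.59 in the arrays labelled Gr control, a difference of -0.31 (SE 0.26, adjusted p = 1.00). With the array labelled Gr control 2 left out, these differences were 0.89, 0.43, -0.51 and -0.27, and the median over the 33 genes was -0.44. Without Gr control replicate 1 that median was 0.26. Comparing arrays of the same replicate number, 16 of 33 genes changed sign between number 1 and number 2, among them Ccl2, at 2.03 and -0.51, and Tlr2, at -0.91 and 0.12.

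**Figure D4:**
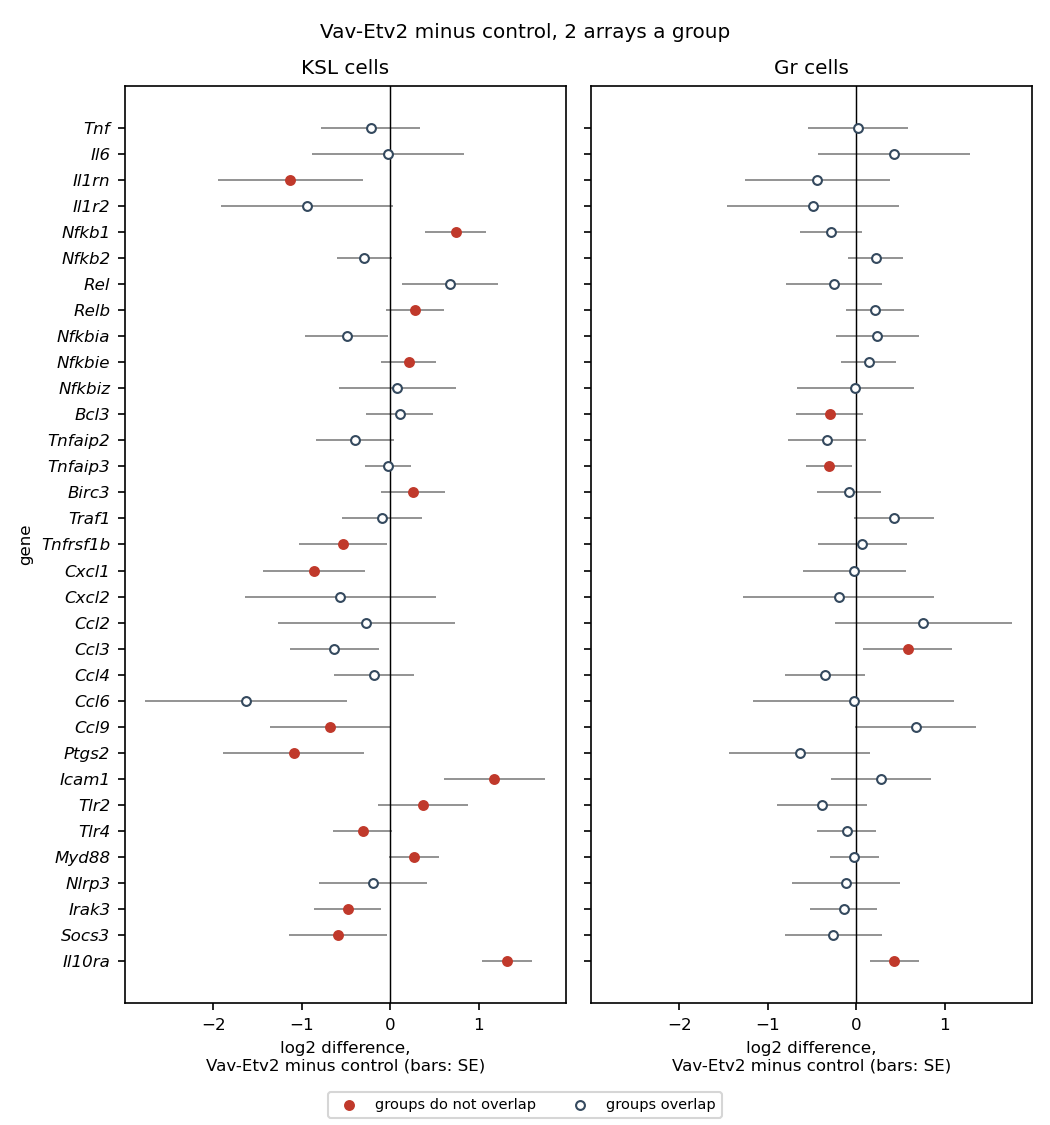
Vav-Etv2 minus control log2 difference of each gene in KSL cells (left) and Gr cells (right), with SE bars and 2 arrays a group. Filled points mark genes whose groups do not overlap, 16 in KSL and 4 in Gr cells, with Il1rn and Cxcl1 not well above background on any KSL array; no gene passed an adjusted p of 0.05.

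The Vav-Etv2 difference was then compared between the cell types in the same model. Of 33 genes 0 passed (limma), against 0.00430% of features, and 0 had an unadjusted p under 0.05. The gap, as the Gr minus the KSL difference, was 1.59 (SE 1.62, adjusted p = 1.00) for Ccl6, 1.34 (SE 0.96, adjusted p = 1.00) for Ccl9 and 1.21 (SE 0.70, adjusted p = 1.00) for Ccl3. For Nfkb1 it was -1.02 (SE 0.50, adjusted p = 1.00). Il10ra stood higher with Vav-Etv2 in both cell types, and its gap was -0.88 (SE 0.39, adjusted p = 1.00). Without Gr control 2 these gaps were 0.69 for Ccl6, 2.36 for Ccl9, 1.52 for Ccl3, -1.09 for Nfkb1 and -0.88 for Il10ra. Leaving out the array labelled Gr control 2 moved the median gap over the 33 genes to -0.27, against 0.24 with it.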

How the data were processed

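The deposited scanner files hold fluorescence intensity from Agilent Feature Extraction 10.7.3.1 per the file headers (10.7 per the submitters' processing notes). The processed signal is background-subtracted and not normalized between arrays, per the file headers. The raw mean and local background intensity columns, also deposited by the authors, were used for 1 alternative. The other deposited columns used hold marks of 0 or 1 per spot, for controls, outliers, saturation and signal well above background. The authors' deposited value table holds log2 values centred within each cell type: 99.8% lay within 0.01 of recomputed centred values. Its column medians ran from -0.26 to 0.29, and it was used only as an alternative within a cell type.

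Outlier spots (21 over the 8 arrays) were removed and repeat spots averaged on the log2 scale. The 75th percentile of each array was subtracted. Probes well above background on at least 2 of 8 arrays were kept, and each gene was read from its brightest probe, by the mean of the 8 arrays. No spot was saturated. Members were matched by the gene name in the files; other probes were named through RefSeq accessions or symbols where these matched (26536, 2599 by symbol and 491 by older symbol, with 25996 left as named). Probe coordinates are on build mm9, per the file headers, and promoter coordinates on GRCm38.p6; they were not mixed.

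limma 3.58.1 in R 4.3.3 fitted the means of the 4 groups to the 8 arrays together (4 residual and 2.77 prior degrees of freedom), with p-values adjusted by Benjamini-Hochberg over 23231 features and called under 0.05. SE is the moderated standard error. Where 1 of 2 groups was not well above background on any array, a fold is a lower bound against each array's lowest signal well above background, or the probe's own where higher. The number of arrays limits the precision: replicate differences over all features had an SD of 0.961 in Gr Vav-Etv2, 1.05 in Gr control, 0.896 in KSL Vav-Etv2 and 0.556 in KSL control arrays.

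The members and lists were chosen with earlier results of these data known. Any member could be named; those called in a comparison, and up to 5 with the largest Vav-Etv2 difference among non-overlapping groups in each cell type, were given with each array, and Nfkb1, Ccl6, Rel and the remaining members beside them. Other pathway genes were named for the 5 smallest p in each comparison where called, or as partners of a member; Ccr2 and the KSL value of Tlr8 did not pass the test. Alternatives were background correction, scaling, filters, floors, probe averaging, samples in the fit, replicate blocks and leaving out each array.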

Additional observations from a re-analysis of the deposited data

How the results depend on the processing

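No alternative called any of the 33 genes for Vav-Etv2 against control in KSL or Gr cells or for the gap between them. Of the alternative settings for the 6 KSL and 4 Gr differences tracked singly, 111 of 112 and 76 of 76 kept direction and side of the threshold; Ccl6 in KSL cells came to 0.14 without KSL Vav-Etv2 replicate 1, in a range of -3.39 to 0.14 over the arrays left out. Of 412 such values between cell types in Vav-Etv2 cells and 359 in control cells, 327 and 301 kept the call, 85 and 58 lost it and 0 reversed. The Gr minus KSL median over the 33 genes was 1.46 (Vav-Etv2) and 1.59 (control) with normexp background correction, and 1.46 in Vav-Etv2 cells within replicate number 2. Scaling by the array median moved the medians of all features to 0.24 and 0.30, with those of the 33 genes at 2.41 and 2.12. Genes called higher numbered 15 and 15 with no filter on dim probes, against 6.04% and 8.10% of all features. On the compared arrays alone they numbered 17 and 19, against 9.56% and 14.0%. Calls of lower in Vav-Etv2 cells were 0 with median scaling, no filter, the replicate block or only the compared arrays; in control cells they were 1 with normexp, quantile normalization, the filter on all 8 arrays, either replicate block or only the compared arrays. The KSL median of the 33 genes was -0.48 within replicate number 1 and 0.03 within number 2.

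Counts of all features called moved as follows. For Vav-Etv2 in KSL cells they were 16 with normexp, 27 with median scaling, 50 with quantile normalization, 0 with the filter on all 8 arrays and 10 with dim signals raised to a floor, against 4. In Gr cells, against 2, they were 0 with normexp, the filter on all 8 arrays, the replicate block or only the compared arrays, and 1 with no filter or the block within cell type. For the gap, against 1, they were 4, 2 and 5 with normexp, median scaling and quantile normalization and 0 with no filter, the filter on all 8 arrays, the floor or either replicate block. Gr against KSL Vav-Etv2 cells gave 10838 features with the block within cell type, against 5634. With that block Socs3 also passed as higher in both genotypes, and Nfkb2 and Rel in control cells, for 23 genes in each. The share of all features called higher rose with it, to 23.2% in Vav-Etv2 cells and 25.9% in control cells, from 13.8% and 18.5%. The replicate numbers were not taken as pairs: replicate 2 minus replicate 1 correlated at 0.658 between the Gr groups and 0.0681 between the KSL groups, and between -0.0556 and 0.133 for other pairs of groups, over 23231 features.

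Leaving out 1 array gave 0 to 37 features for Vav-Etv2 in KSL cells (37 without KSL Vav-Etv2 replicate 2), 0 to 2 in Gr cells, 0 for the gap, 2249 to 7280 for Gr against KSL Vav-Etv2 cells and 2216 to 9396 for control cells. The 33-gene median ranged from -0.48 to 0.10 in KSL, from -0.44 to 0.27 in Gr, from -0.27 to 0.50 for the gap, from 1.76 to 2.38 for Gr against KSL Vav-Etv2 cells and from 1.71 to 2.06 for control cells. Genes called higher ranged from 8 to 23 in Vav-Etv2 and 8 to 20 in control cells, and called lower from 0 to 1 in each; the lone array of a group is then taken to vary like the other groups. The cause of these moves was not tested, beyond the loss of residual degrees of freedom that fewer arrays bring. Il1rn, Rel and Cxcl1 were well above background on 4, 5 and 2 arrays, which limits their folds. The 2 probes of Nlrp3 and of Birc3 disagreed in sign on small Vav-Etv2 differences, in KSL cells for Nlrp3 and in Gr cells for Birc3.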
